A study of Bos taurus with 15 samples.

Results

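The genes described here are the 100 genes whose transcript levels moved most closely with S100A9 across peripheral white blood cells (PWBC) of 15 beef heifers. They were chosen by their Pearson correlation with ENSBTAG00000006505, which the description of this gene set names S100A9. The correlation was taken over log2 CPM (counts scaled to a common library size) of all 15 heifers, among 12270 genes that reached a CPM of 1 in at least 8 heifers, of 27607 genes listed. Before the choice the 100 genes of highest mean CPM were set aside, together with S100A9 and 7 further genes listed by ID, which left 12162 candidates. The blood was drawn at weaning from Angus-Simmental crossbred heifers, and each heifer gave 1 library. All heifers later went through the same estrus synchronization, timed artificial insemination (AI) and bull exposure. Group names come from the pregnancy check after breeding, so no heifer was pregnant when sampled. The 8 heifers pregnant to AI carried IDs 4, 6, 34, 40, 41, 43, 45 and 47. The 7 not-pregnant heifers carried IDs 3, 33, 37, 39, 42, 44 and 48; the labels call them not pregnant to AI, and the study's methods describe them as without a conceptus after bull exposure as well. PWBC are the nucleated cells that remain once red blood cells are lysed, here from the buffy coat, the pale layer on top of spun red cells.

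S100A9 is a small calcium-binding protein that pairs with S100A8 to form calprotectin. Neutrophils, the most common granulocytes, hold much of it in their cytosol, and monocytes also make it. Calprotectin binds zinc and manganese, which microbes need, and acts as a danger signal once released. In a bulk sample of blood leukocytes its transcript is often read as a sign of granulocyte and monocyte content, but more cells of a type and more RNA per cell cannot be told apart. No blood cell counts were analysed here. None of the 12270 Ensembl IDs could be paired with a symbol in the tables used, so the members carry no gene names, functions, positions or sequences, and leukocyte marker genes could not be read. The link to neutrophils therefore rests on S100A9 alone, and was not tested against other markers. One member is given by ID because its correlation was the highest and another because its p-value was the smallest, and the others are given by their rank in correlation.

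Libraries held 15987111 to 24909038 counts on genes. Some libraries stood apart. Heifer 47 was far above all others in S100A9. On the first principal component of all genes, heifer 4 (pregnant to AI) scored -33.8 while the other heifers of its group scored 13.3 or more, and heifer 37 (not-pregnant) scored 21.2 while the rest of its group scored -10.6 or less. The TMM factor corrects a library for composition. It ranged from 0.916 to 1.14 in heifers pregnant to AI and from 0.842 to 1.06 in not-pregnant heifers. On average it was 1.06 ± 0.07 (SD, n = 8) against 0.94 ± 0.07 (SD, n = 7). Heifer 4 had the lowest factor of its group and heifer 37 the highest of its group.

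S100A9 itself was present at a moderate level. Its mean CPM of 70.0 placed it 2999th of 12270 genes, against 1152.6 for the 100th gene and a median of 26.0 over all genes, and it took at most 0.0233% of the counts of any heifer. In heifers pregnant to AI the lowest CPM was 56.5 (heifer 41), the median 73.0 and the highest 217.4 (heifer 47). In not-pregnant heifers the lowest was 31.1 (heifer 44), the median 43.6 and the highest 64.5 (heifer 37). The groups overlapped, and heifer 47 stood far above the next heifer, 40, at a log2 CPM of 7.76 against 6.61. S100A9 was called higher in heifers pregnant to AI, by 0.98 on the log2 fold change scale (standard error, SE, 0.27, Benjamini-Hochberg adjusted p = 0.0356 over all genes in the quasi-likelihood test of edgeR). The mean log2 CPM was 6.37 ± 0.61 (SD, n = 8) against 5.49 ± 0.38 (SD, n = 7), a difference of 0.88 (two-sided exact permutation test over 6435 divisions into 8 and 7, p = 0.00186). Without heifer 47 this difference was 0.68 (exact permutation test, p = 0.00408). Both permutation p-values are unadjusted, and 4222 of 12270 genes had an unadjusted edgeR p under 0.05. Leaving out 1 heifer at a time, the edgeR call was lost in 9 of 15 fits, those without 3, 33, 34, 39, 42, 44, 45, 47 or 48, with adjusted p-values up to 0.0795. Without heifer 47 the log2 fold change was 0.66 (SE 0.16, adjusted p = 0.0505 by edgeR).

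The list was a continuous upper tail and had no natural edge. Correlations with S100A9 ran from 0.947 for the first member to 0.764 for the last, with a median of 0.811. The members ranked 99 and 100 had 0.7639 and 0.7638, and the first 2 genes outside had 0.7633 and 0.7631. The median over all genes was 0.019. At 0.8 or above there were 61 candidates, against 11 at -0.8 or below. Of the 7 other genes set aside by ID, 4 would have passed the limit, the highest at 0.90 and the lowest of all 7 at -0.17. Among the 100 genes of highest CPM none would have passed, and the highest was 0.658. These values chose the members and are given as a description.

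Members were mostly low in expression and variable. Their mean CPM ranged from 1.24 to 671 with a median of 9.95, and 13 of them lay above S100A9. The standard deviation of log2 CPM over the heifers had a median of 0.57 in the members, with 84 of 100 above the all-gene median of 0.289, and was 0.675 for S100A9. For a rise of 1 log2 unit in S100A9 the fitted rise of a member was between 0.18 and 1.6 log2 units with a median of 0.68, and 24 members rose by more than S100A9 did. All 100 had passed the expression filter by the rule. A CPM of 1 was reached in all 15 heifers by 82 members, and in fewer than 4 of the 7 not-pregnant heifers by 8, so these 8 passed mainly through the group in which they were higher. The member of highest CPM, ranked 67 by correlation, averaged 706 ± 86.5 (SD, n = 8) in the group pregnant to AI. The not-pregnant group averaged 630.2 ± 29.0 (SD, n = 7), a log2 fold change of 0.16 (SE 0.08, adjusted p = 0.150 by edgeR).

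Because all members were chosen by likeness to 1 gene over these heifers, their likeness to each other follows from the choice, and the values that follow are a description. The mean of their log2 CPM was lowest in heifer 3 at 2.66 and highest in heifer 47 at 4.56. In heifers pregnant to AI it ranged from 3.41 (heifer 4) over a median of 3.65 to 4.56, with a mean of 3.75 ± 0.36 (SD, n = 8). In not-pregnant heifers it ranged from 2.66 over a median of 2.84 to 3.42 (heifer 37), with a mean of 2.94 ± 0.27 (SD, n = 7). The groups overlapped only in that heifer 37 lay just above heifer 4. Over the 4950 pairs of members the pairwise correlation had a median of 0.763 and a lowest value of 0.333 (median 0.571 on values centred within groups), and the first principal component of the standardized members held 75.5% of their variance, against 36.9% for all genes. Together the members took 0.292% to 0.549% of the counts in heifers pregnant to AI and 0.215% to 0.34% in not-pregnant heifers.

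**Figure D1:**
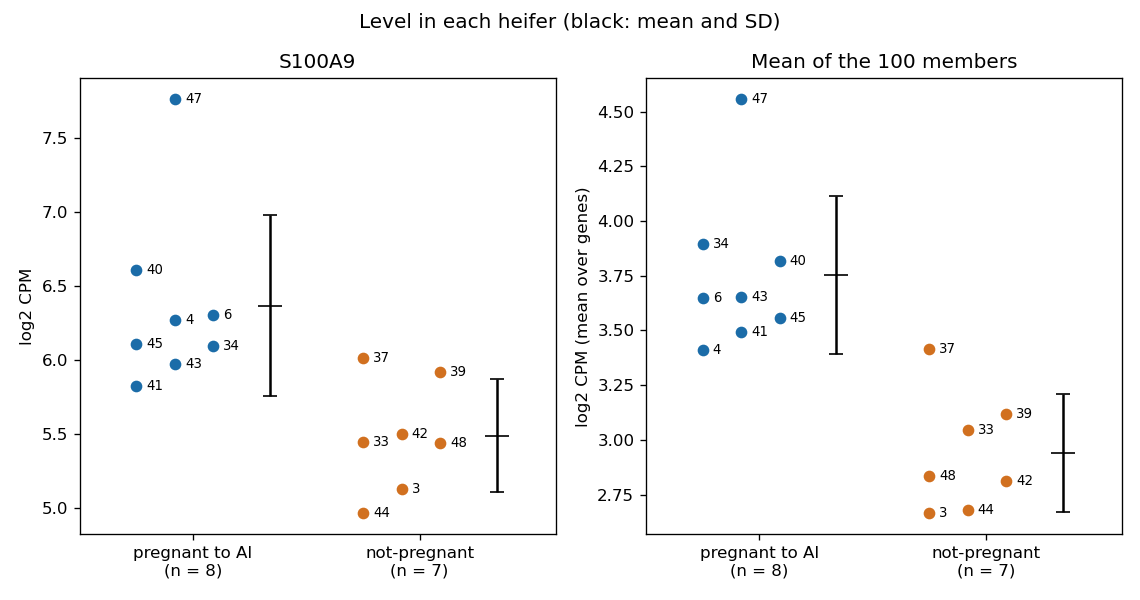
S100A9 (left) and the mean of the 100 members (right) in log2 CPM, with 1 point per heifer labelled by ID, and the mean and SD of each group in black. Heifer 47 is the highest point in both panels, and the members' mean overlaps between the groups only at heifers 4 (3.41) and 37 (3.42).

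One library held the top of most members. Heifer 47 was the highest heifer for 90 of the 100 members and lay above the median of all 100. The other 10 were highest in heifers 40 (6 members), 34 (2), 4 (1) and 43 (1). The lowest values were spread more widely, with 35 members lowest in heifer 3, 27 in heifer 44, 17 in heifer 48 and 13 in heifer 42. Heifer 4 was above the median of 47 members and heifer 37 above that of 46, a middle position for both.

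**Figure D2:**
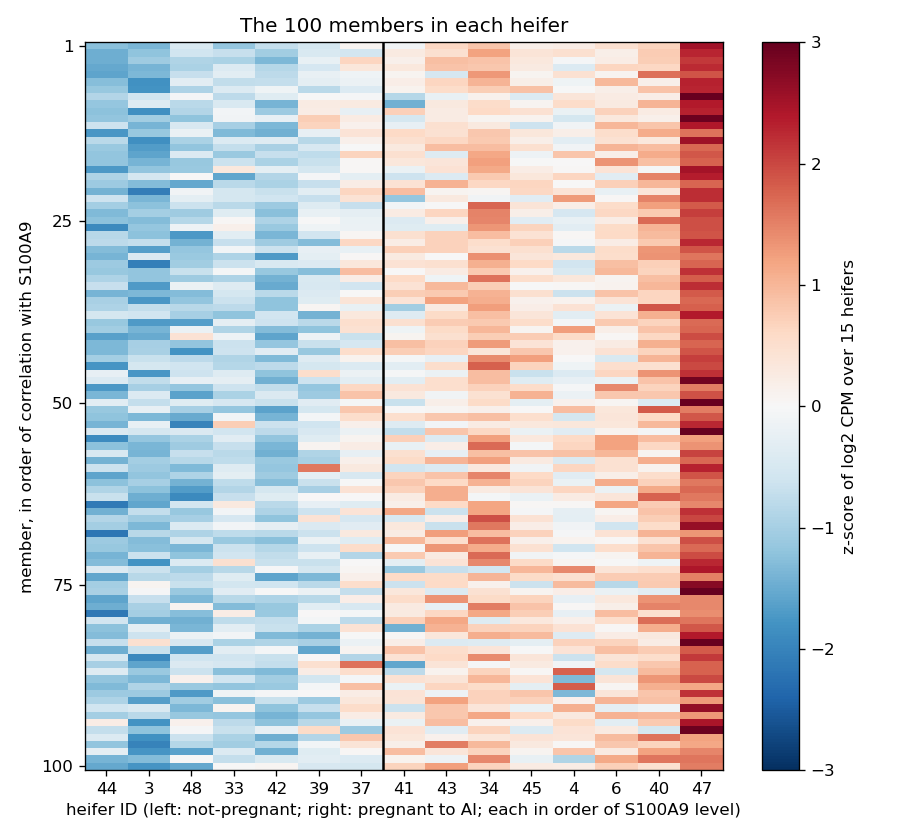
Each row is a member in order of its correlation with S100A9 and each column a heifer, not-pregnant on the left and pregnant to AI on the right, in order of S100A9 level within each group. Colour is the z-score of log2 CPM over the 15 heifers (red high, blue low), and the column of heifer 47 holds the highest value of 90 members.

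ENSBTAG00000002669 followed S100A9 most closely, at a correlation of 0.947. Its CPM in heifers pregnant to AI was 8.33 at the lowest (heifer 41), 11.2 at the median and 27.4 at the highest (heifer 47). In not-pregnant heifers it was 4.66 at the lowest (heifer 3), 6.32 at the median and 9.04 at the highest (heifer 37). The groups overlapped through heifer 41 on one side and heifer 37 on the other. On average it stood at 12.7 ± 6.10 (SD, n = 8) against 6.29 ± 1.54 (SD, n = 7), and it was called higher in heifers pregnant to AI by 1.02 log2 units (SE 0.24, adjusted p = 0.0274 by edgeR). Its correlation was 0.904 on values centred on each group mean, and 0.895 without heifer 47. These heifers also served to pick it as the highest of 12162 correlations, so both values are a description. S100A9 itself differed by outcome, so the call of this gene is not independent of the choice. With 1 heifer left out at a time its call was lost in 5 of 15 fits, those without 3, 34, 39, 42 or 48, with adjusted p-values up to 0.0627 in edgeR.

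ENSBTAG00000012252 had the smallest p-value of the members by pregnancy outcome, and ranked 42 by correlation at 0.819. Its CPM was between 3.09 (heifer 4) and 7.37 (heifer 47) in heifers pregnant to AI with a median of 4.43, and between 1.36 (heifer 44) and 2.19 (heifer 37) in not-pregnant heifers with a median of 1.66. Every heifer pregnant to AI was above every not-pregnant heifer, on 48 to 141 counts against 20 to 50. On average it stood at 4.62 ± 1.43 (SD, n = 8) against 1.75 ± 0.32 (SD, n = 7), and the log2 fold change was 1.39 (SE 0.20, adjusted p = 0.0115 by edgeR). Its call held whichever of the 15 heifers was left out. Picking the smallest p-value of the members favours groups without overlap and a call that holds. These values are therefore a description.

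By pregnancy outcome, 54 of the 100 members were called, all 54 higher in heifers pregnant to AI (a call needed an edgeR adjusted p no higher than 0.05 and a log2 fold change of 0.5 or more in size). Over all 12270 genes 5.85% were called in either direction and 3.66% as higher. S100A9 itself differed between the groups and the members were chosen by likeness to it over the same heifers, so they could not be independent of its difference or of one another, and nothing is read from the excess. The log2 fold change was above 0 in all 100 members, against 52.1% of all genes, with a median of 0.79 (quartiles 0.48 and 1.13) against 0.01. An unadjusted p under 0.05 with higher values in heifers pregnant to AI was found for 95 members and for 17.3% of all genes. Groups without overlap, every heifer pregnant to AI above every not-pregnant one, occurred in 14 members and in 0.367% of all genes. The calls included the members ranked 10, 13, 27 and 100, which passed the expression filter mainly through the group pregnant to AI. The member ranked 100 was also among these 14. With library size in place of TMM the median log2 fold change shifted to 0.18 over all genes and 0.95 over the members, and 72 members were called, all higher. That scaling turned the split of all calls from 449 higher of 718 to 917 higher of 1013.

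A further 46 members were not called. In 12 the adjusted p passed and the fold change was below the limit, in 18 the fold change passed and the adjusted p did not, and in 16 neither passed. The largest log2 fold change belonged to the member ranked 27 by correlation, which reached a CPM of 1 in 1 not-pregnant heifer and so is among the 8 that passed the filter mainly through the group pregnant to AI. It had 2.07 (SE 0.39, adjusted p = 0.0182 by edgeR), from 0.660 ± 0.404 CPM (SD, n = 7) in not-pregnant heifers to 2.85 ± 1.69 CPM (SD, n = 8). At the other end the member ranked 86 had 0.09 (SE 0.08, adjusted p = 0.475 by edgeR), from 36.7 ± 4.38 CPM (SD, n = 7) to 39.0 ± 3.89 CPM (SD, n = 8). The members of lower expression include those 8, and they also varied more, so their values are set beside the rest as a description. Among the 50 members below a mean CPM of 9.95 the median log2 fold change was 1.02 and 34 were called. Among the other 50 it was 0.49 and 20 were called. In the same order the median SD of log2 CPM was 0.728 and 0.359, and the median correlation with S100A9 was 0.814 and 0.810. All genes, of which 3.66% were called higher, were not split in this way. Whether the contrast by expression is particular to the members was therefore not tested. Of the 10 members closest to S100A9, 8 were called, and the members ranked 8 and 9 were not, with log2 fold changes of 0.81 (SE 0.38, adjusted p = 0.143 by edgeR) and 1.03 (SE 0.38, adjusted p = 0.0799 by edgeR). The called member ranked 10 passed the filter mainly through the group pregnant to AI. In the member ranked 8 the highest CPM was 14.1 in heifers pregnant to AI, whose mean was 4.26, against 2.90 at most in not-pregnant heifers.

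Single heifers moved these counts. The number of members called ranged from 19 without heifer 48 to 67 without heifer 37, while the share of all genes called ranged from 0.652% to 15.3%, the latter without heifer 4. In 7 of the 15 fits the members' count moved by more than 1.5 times. It was 19 without heifer 48 (0.652% of all genes called), 20 without 42 (0.758%), 24 without 34 (0.929%) and 25 without 39 (0.782%). Further, it was 30 without 3 (1.78%), 31 without 47 (1.28%) and 35 without 45 (1.21%). All 15 heifers gave 54 members and 5.85% of all genes, so calls over all genes fell as well. All 100 log2 fold changes stayed above 0 in each of these 15 fits. Without heifer 47 their median was 0.60. Without heifers 4 and 37 together 69 members were called, and 2506 of 12270 genes. On the first principal component of all genes each of these heifers scored among the other group. More calls can follow from leaving them out, and nothing is read from the rise.

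**Figure D3:**
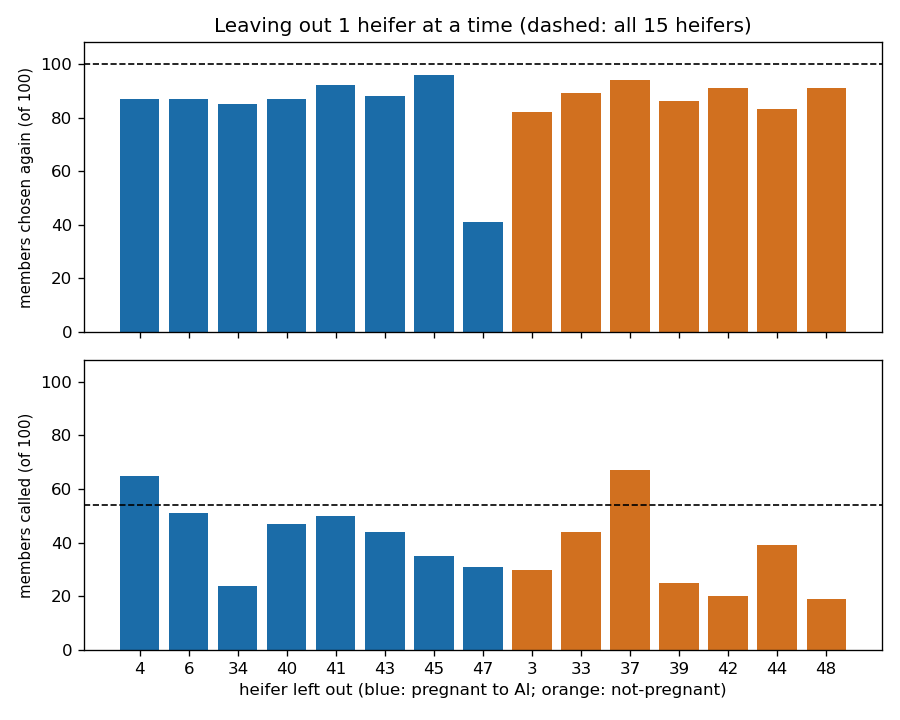
Bars give, for each heifer left out, how many of the 100 members were chosen again (top) and how many of the original 100 were called by pregnancy outcome (bottom). The dashed lines mark all 15 heifers (100 and 54), and the shortest bar at the top, 41, belongs to heifer 47.

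Membership rested on heifer 47 more than on any other heifer. When the genes were chosen again without it, 41 of the 100 returned, against 82 to 96 when any other heifer was left out. The 100 members kept a median correlation of 0.755 with S100A9 over the other 14 heifers, and 5 fell below 0.5. Of the 41 that returned 32 were called by pregnancy outcome in all heifers, and of the 59 that did not 22 were. Of the 100 genes chosen without heifer 47, 50 were called in the fit of all heifers, all higher in the group pregnant to AI. Their median log2 fold change was 0.56. These genes too were chosen by likeness to a gene that differed by outcome, so nothing is read from their count. By Spearman's rank correlation, which limits the weight of 1 extreme heifer, 40 of the 100 returned. Choosing on values centred within each pregnancy group gave back 57. A total of 19 members returned under all 3 of these choices, among them the member of highest correlation, and 17 of the 19 were called, with a median log2 fold change of 1.04. As with all members, these were chosen by likeness to a gene that itself differed by outcome, and 3.66% of all genes were called higher.

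Within each group the members followed S100A9 less evenly. Over the 8 heifers pregnant to AI their correlation with S100A9 had a median of 0.720 (lowest 0.310), and over the 7 not-pregnant heifers 0.684 (lowest -0.24), where 25 members were below 0.5. Both groups had helped to choose the members, so a choice made in one group was also read in the other. The 100 candidates closest to S100A9 in heifers pregnant to AI had a median correlation of 0.154 in not-pregnant heifers, and 63 were above 0, against a median of 0.020 and 51.9% above 0 for all candidates. Those closest in not-pregnant heifers had a median of 0.176 in heifers pregnant to AI, with 71 above 0, against -0.011 and 48.6%. The separate choices shared 6 genes, and 36 and 11 of their genes were members. Most of the genes closest to S100A9 in one group were not close to it in the other. Correlations over 7 or 8 heifers are imprecise and the highest of 12162 were taken, so a fall follows in part from the choice.

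**Figure D4:**
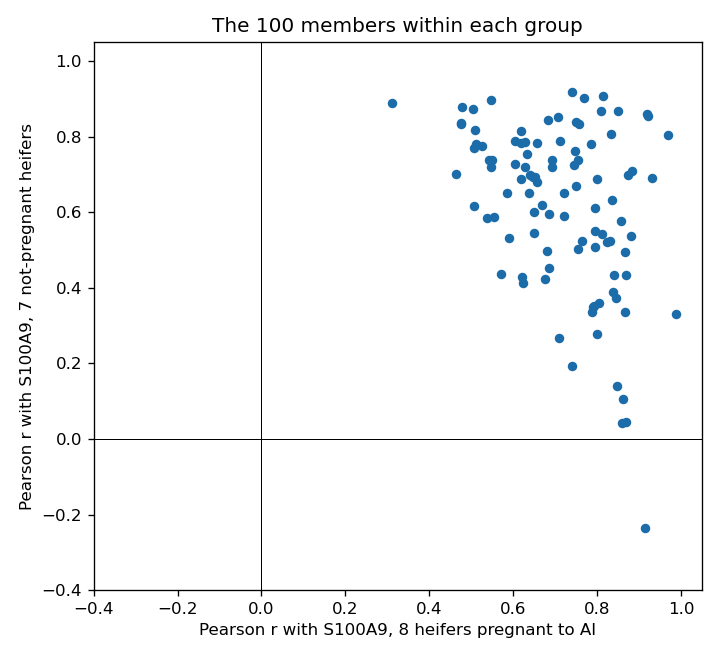
Each point is 1 of the 100 members, placed by its Pearson correlation with S100A9 over the 8 heifers pregnant to AI (horizontal) and over the 7 not-pregnant heifers (vertical). The medians are 0.720 and 0.684, and 1 member lies below 0 in not-pregnant heifers at -0.24.

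The choice on centred values did not use the difference between the group means, though it did include the extreme heifer 47. Of those 100 genes, 27 were called, all 27 higher in heifers pregnant to AI, where 3.66% of all genes were called higher. The median log2 fold change over the 100 was 0.40, with 87 above 0, against 0.01 and 52.1% over all genes. These genes share S100A9's variation over the same heifers and are not independent of one another. Heifer 47, pregnant to AI, had an S100A9 log2 CPM of 7.76 against 6.61 for the next heifer. A gene high in heifer 47 is favoured by the centred choice, and the same value raises its mean in heifers pregnant to AI. The choice was therefore not free of the direction of the difference. How far these counts rest on heifer 47 was not tested. All 27 calls were among the 57 genes shared with the members, a split that follows in part from membership itself, since the overall correlation includes the difference between the groups.

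As a description, log2 CPM of S100A9 was added to the model of pregnancy outcome as a covariate. The members' median log2 fold change went from 0.79 to 0.25, and it was smaller in all 100, with 83 still above 0. Every member had been chosen for its positive correlation with S100A9, which was itself higher in heifers pregnant to AI. Smaller values with the covariate follow from that choice, and nothing is read from them. The members' median standard error went from 0.20 to 0.21. In edgeR 0 members were called, and 34 had an unadjusted p under 0.05, 32 of them higher in the group pregnant to AI, where all genes gave 9.35%. limma-voom called 0 members, with 33 at an unadjusted p under 0.05, and DESeq2 called 2. ENSBTAG00000002669 went from 1.02 to 0.27 (SE 0.16, adjusted p = 0.360 by edgeR), while ENSBTAG00000012252 went from 1.39 to 0.999 (SE 0.22, adjusted p = 0.260 by edgeR). Among the members whose sign turned were those ranked 8 and 9, to -0.55 (SE 0.22) and -0.18 (SE 0.29). The lowest value was -0.63 (SE 0.27), in the member ranked 11.

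The same covariate left 0 of 12269 genes called in edgeR, with 2087 at an unadjusted p under 0.05 against 4222 without it. limma-voom also called 0, with 2151 under 0.05, and DESeq2 called 32. The 663 other genes called by pregnancy outcome had a median absolute log2 fold change of 0.70 without and 0.65 with the covariate. Over the called genes, members included, the median standard error went from 0.19 to 0.25. How the estimate of each of these genes moved is not described by these medians. S100A9 was both the covariate and the gene by which the members were chosen, so the smaller differences of the members are a description. Whether granulocyte content accounts for the difference by pregnancy outcome was not tested, because S100A9 was the sole marker that could be read and no cell counts were used, and S100A9 level and outcome cannot be fully told apart in 15 heifers.

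**Figure D5:**
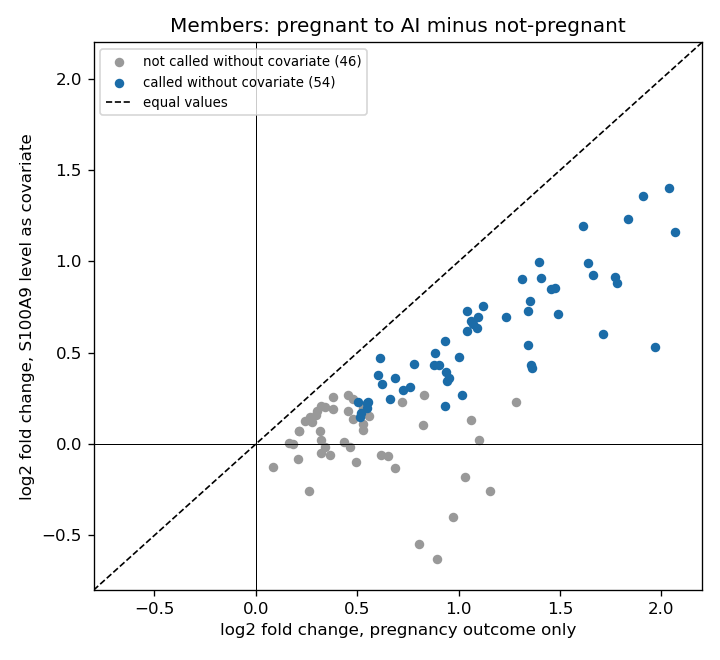
Log2 fold change (pregnant to AI minus not-pregnant) of each member without (horizontal) and with (vertical) the S100A9 level in the model; blue points were called without it. All 100 points lie below the line of equal values, with medians of 0.79 and 0.25. Their place below the line follows from choosing the members by likeness to S100A9, which itself differed by outcome.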

How the data were processed

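RNA from PWBC of 15 heifers was sequenced as paired-end reads. The authors aligned the reads to Ensembl's cattle genome with STAR 2.7.5, which also counted them, and the raw counts they deposited, 1 per Ensembl gene and heifer, carry no normalization; FastQC 0.11.9 and MultiQC 1.12 were used for quality control. The deposited normalized table was not used. Here, genes reaching a CPM of 1 in 8 or more of the 15 heifers entered the tests, and libraries were scaled by TMM. The test was the quasi-likelihood test in edgeR 4.0.16 (R 4.3.3), with pregnancy outcome as the only term and Benjamini-Hochberg adjustment; SE was taken as the size of the log2 fold change over the root of F. Log2 CPM used a prior count of 2. DESeq2 1.42.0 and limma-voom (limma 3.58.1) were alternatives, and the scripts were tested on simulated data. The members, lists and rules were chosen with earlier results of these data known. The named genes were set as S100A9, the 10 members of highest correlation, the 5 smallest p-values and the genes at the edge of the list, of which 2 IDs are printed. Lists of leukocyte markers and pathway genes were not run, since 0 of 12270 IDs matched the reference table. Labels do not say whether heifers were processed in batches. Heifers were the replicates. The lowest count of a member in any heifer was 3, and counting error is largest in such members.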

Additional observations from a re-analysis of the deposited data

Results flagged for a closer look

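Among 14 sets of values (7 measures in 2 groups), 4 held a heifer whose gap to the nearest other was larger than expected for the group's range at the 95% level, where chance gives about 1 in 20. Heifer 47, pregnant to AI, was far above its group in S100A9 with a log2 CPM of 7.76 against 6.61 for the next, in the mean of the members with 4.56 against 3.89, and in ENSBTAG00000002669 with 4.78 against 3.69. These 3 values share their source, since the members were chosen by likeness to S100A9. The gap was 0.597, 0.577 and 0.642 of the group's range, above Dixon's critical value for 8 heifers. Heifer 47 had the lowest depth of its group, 16415025 counts, and a TMM factor of 1.08. Heifer 4, also pregnant to AI, scored -33.8 on the first principal component of all genes against 13.3 for the next. In the mean of the members it was the lowest of its group at 3.41, without a gap past the critical value. What set either heifer apart was not tested.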

How the results depend on the processing

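The members' count of 54 calls stayed within 1.5 times, at 46 to 72, in all 7 settings that changed the tool, the scaling, the filter or the fold change limit. With the S100A9 level as covariate it was 0 in edgeR, 0 in limma-voom, 2 in DESeq2 and 0 in edgeR without heifer 47. With genes chosen within pregnancy groups it was 27, and with genes chosen without heifer 47 it was 50. With 1 heifer left out it was 19 to 67. Over all genes the 718 calls became 1116 in DESeq2, 448 without a filter (20583 genes tested), 1491 without a fold change limit, 2506 without heifers 4 and 37, 80 to 1875 with 1 heifer left out and, with the covariate, 0 in edgeR, 0 in limma-voom, 32 in DESeq2 and 0 without heifer 47. S100A9 kept its direction in every setting run, with a log2 fold change of 0.66 to 1.08 with 1 heifer left out, and lost its call in 9 of those 15 fits. Of the 100 members, 40 were chosen again by Spearman's correlation, 57 within pregnancy groups, 36 in heifers pregnant to AI alone, 11 in not-pregnant heifers alone and 41 to 96 with 1 heifer left out, against 99, 88 and 98 with other size factors, library size only and a prior count of 0.5. Of the members set as named genes, those ranked 8 and 9 reversed with the covariate, to log2 fold changes of -0.55 and -0.18. Of all 100 members, 83 stayed above 0 with it, and smaller values with it follow from how the members were chosen. The cause of these changes was not tested. Some of the settings also held fewer heifers, tested more genes or used a wider criterion. The fits without heifers 4 and 37 together, those with the covariate in other tools or without heifer 47, and the choices within one group were added after the data were seen. The counts of calls for genes chosen within groups or without heifer 47 were also added then. A neutrophil marker component as covariate was planned and not run, for want of gene names. No paired analysis was possible because each heifer belongs to 1 group and heifer IDs do not recur.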
